A study of Homo sapiens with 12 samples.

Results

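The replication-dependent histone genes encode the proteins that package newly made DNA. They were taken here as the protein-coding genes whose GENCODE 29 symbol begins with HIST1H, HIST2H, HIST3H or HIST4H, which gave 70 of the 57865 genes summed from the deposited transcripts. RNA came from 4 established cell lines of human acute myeloid leukaemia, named KG-1a, MOLM-14, MV4-11 and OCI-AML3. Each line was kept for 12 h with DMSO, the solvent control, with 10 µM pioglitazone or with 10 µM darglitazone, 1 library per line and treatment, so 12 libraries in all. Both drugs are thiazolidinediones, which activate the nuclear receptor PPARγ. The 3 treatments are compared over the 4 lines, and each line is represented by 3 libraries that differ in treatment, with no repeat culture of any condition.

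Replication-dependent histone genes are transcribed during S phase, when each new nucleosome needs a pair of each core histone H2A, H2B, H3 and H4, and linker histone H1 binds the DNA between nucleosomes. They lie in clusters, mostly lack introns, and their mRNAs end in a stem-loop in place of a poly(A) tail. That stem-loop is bound by SLBP, and NPAT, a substrate of the S phase cyclin and kinase pair, switches the clusters on. Leukaemia lines divide continuously in culture and hold S phase cells at all times. The libraries were made from total RNA after removal of ribosomal RNA, so mRNAs without a poly(A) tail were counted.

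By class there were 6 H1, 17 H2A, 18 H2B, 14 H3 and 15 H4 genes. The HIST1 cluster on chromosome 6 held 55 of them, in 4 blocks parted by gaps of more than 100 kb. Its second block (chr6:26017085-26285638, GRCh38) held 32 genes in 268.6 kb, and its last (chr6:27807444-27893843) held 16. HIST2 on chromosome 1 held 11 genes, HIST3 on chromosome 1 held 3 and HIST4 on chromosome 12 held 1. Of the 70 genes, 63 passed the filter on low counts and were tested. The 7 others were H2AC1, H2BC1, H3-4, H1-6, H4C7, H4C12 and HIST2H3PS2, of which the first 4 are known mainly from testis, and all 7 stayed at or under 7.46 CPM (counts scaled to a common library size, with TMM factors) in every library.

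The stem-loop is shown because it is the feature that sets these mRNAs apart. Among 97 transcript rows of the 70 genes, 52 ran at least 50 bases past the stop codon, and 38 of these held the stem-loop, in 28 of 34 genes. The search took only a fully paired stem that began with GG, around a 4-base loop of restricted sequence. Other forms were not looked for, and 4 versions occurred. They are given 5′ to 3′ with the loop in capitals, as read from the GENCODE 29 transcripts.
Version in 16 genes of H2A, H2B and H3: ggcucuUUUCagagcc
Version in 5 genes of H2B and H3: ggcucuUUUAagagcc
Version in 4 H4 genes: ggcccuUUUCagggcc
Version in 3 H4 genes: ggcccuUUUUagggcc
The stems of both H4 versions are the same and differ from the stem of the other versions, and the 7 genes counted with them are all H4 genes. H4C11, an H4 gene whose row ends 44 bases past the stop codon, was not counted but holds the H4 version with loop UUUC.

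Promoters of 65 of the 70 genes were found among 27305 RefSeq promoters (GRCh38.p14, 250 bases before to 50 after the start, the start nearest the annotated one where RefSeq lists several), and 5 motifs were searched on both strands. The octamer ATTTGCAT was present in 14 of 18 H2B and 11 of 16 H2A promoters and in no H1, H3 or H4 promoter, against 1.80% of all promoters. Some H2A and H2B neighbours, such as H2AC20 and H2BC21, have overlapping windows on opposite strands, so an octamer there counts for both. AAACACA, known as an H1 element, was in 6 of 6 H1 promoters against 5.76% of all. GGTCCG, the core of an H4 element, was in 12 of 13 H4 promoters against 11.2% of all. CCAAT was in each of the 52 matched H1, H2A, H2B and H3 promoters but in 3 of 13 H4 promoters (35.7% of all), and TATAAA was in 44 of 65 (12.0% of all). A match is a run of letters and not a measured binding site. The 130 bases before the start follow for 6 genes. H1-5 and H4C11 had high levels per length, H2BC12 was expressed in all lines, and H2BC9, H2BC10 and H3C7 were close to 0 in a pair of lines. Capitals mark the class motif (AAACACA for H1, GGTCCG for H4, ATTTGCAT for H2B, CCAAT for H3) and TATAAA on either strand.
H1-5, chr6:27867589-27867718, minus strand: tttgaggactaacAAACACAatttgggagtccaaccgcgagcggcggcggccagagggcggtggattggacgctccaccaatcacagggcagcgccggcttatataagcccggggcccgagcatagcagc
H4C11, chr6:27823962-27824091, plus strand: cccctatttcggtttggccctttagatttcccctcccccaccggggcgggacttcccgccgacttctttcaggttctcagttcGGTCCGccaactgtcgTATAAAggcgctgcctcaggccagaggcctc
H2BC12, chr6:27146856-27146985, minus strand: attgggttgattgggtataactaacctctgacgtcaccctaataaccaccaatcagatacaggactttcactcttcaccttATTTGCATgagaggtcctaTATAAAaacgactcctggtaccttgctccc
H2BC9, chr6:26251484-26251613, plus strand: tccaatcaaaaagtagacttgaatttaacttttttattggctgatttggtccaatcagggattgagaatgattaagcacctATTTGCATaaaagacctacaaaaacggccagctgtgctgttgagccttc
H2BC10, chr6:26272801-26272930, plus strand: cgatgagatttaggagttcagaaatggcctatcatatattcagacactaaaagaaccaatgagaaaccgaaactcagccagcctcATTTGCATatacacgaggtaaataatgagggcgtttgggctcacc
H3C7, chr6:26250636-26250765, minus strand: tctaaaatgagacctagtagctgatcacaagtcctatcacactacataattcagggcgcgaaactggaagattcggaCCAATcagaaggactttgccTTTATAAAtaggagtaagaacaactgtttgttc

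Library totals of estimated counts ran from 1095314 to 64226389, so 3 counts equalled 0.0448 to 2.63 CPM. The OCI-AML3 pioglitazone library was the shallowest, and there 6.17% of counts fell on a single ribosomal DNA entry, against 23.5% in KG-1a pioglitazone and 0.0421% to 0.542% in the 10 others. In the OCI-AML3 pioglitazone library the median level of 72 genes particular to KG-1a was 1.85% of that in KG-1a itself, and in the KG-1a darglitazone library 5 genes particular to MV4-11 stood at 4.24%. Lower levels of this kind were found in the MV4-11 DMSO library, with 4 genes of MOLM-14 at 2.03% and 11 genes of OCI-AML3 at 1.5%, and in MV4-11 darglitazone, with 4 genes of MOLM-14 at 1.26%. The 10 myeloid and leukaemia markers summed to 1225 to 3351 CPM, while 11 markers of B, T, red, platelet, epithelial, stromal and liver cells summed to at most 32.8 CPM, with MS4A1, HBB and HBG1 at 0 in all libraries. Values by class, by block and by single line below were not recomputed without these libraries.

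Histone RNA formed a larger share of the message in MOLM-14 than in the other lines, and the share was lower with drug than with DMSO in each line. The 70 genes took 2.92%, 2.80% and 2.71% of protein-coding counts in MOLM-14 (DMSO, pioglitazone, darglitazone in that order here and below). For OCI-AML3 the shares were 2.43%, 1.01% and 1.60%, for MV4-11 2.11%, 1.49% and 1.51%, and for KG-1a 1.47%, 1.11% and 1.34%. All 3 MOLM-14 libraries lay above the 9 others. Of all counts the shares were 2.23% to 2.44% for MOLM-14, 0.755% to 2.07% for OCI-AML3, 1.21% to 1.77% for MV4-11 and 0.617% to 1.15% for KG-1a, again highest with DMSO in each line. In bulk RNA a smaller number of S phase cells and less histone RNA per cell cannot be told apart.

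The make-up of that share by class stayed within narrow bounds while its size ranged from 1.01% to 2.92%. H1 held 18.2% ± 0.955 (SD, n = 12 libraries) of histone counts, H2A 23.6% ± 0.798, H2B 21.8% ± 0.734, H3 17.8% ± 1.37 and H4 18.4% ± 0.727. H3 had the widest range, from 14.9% in OCI-AML3 pioglitazone to 19.5% in MV4-11 DMSO. By position the lines differed more. The second HIST1 block gave 31.9% ± 0.380 (SD, n = 3) of histone counts in MOLM-14 and 35.0% ± 1.55 in OCI-AML3, against 41.3% ± 0.941 in MV4-11 and 42.8% ± 0.724 in KG-1a, with no overlap between the first pair of lines and the second. It holds H3C7, H2BC9, H3C8 and H2BC10, described below as close to 0 in the first pair. Together these genes had 8422 of 159000 histone counts in MV4-11 DMSO and 7098 of 99830 in KG-1a DMSO. Block shares were not recomputed without them. HIST2 held 19.7% to 25.8% in every library, while HIST3 and HIST4 together stayed under 1%.

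**Figure D1:**
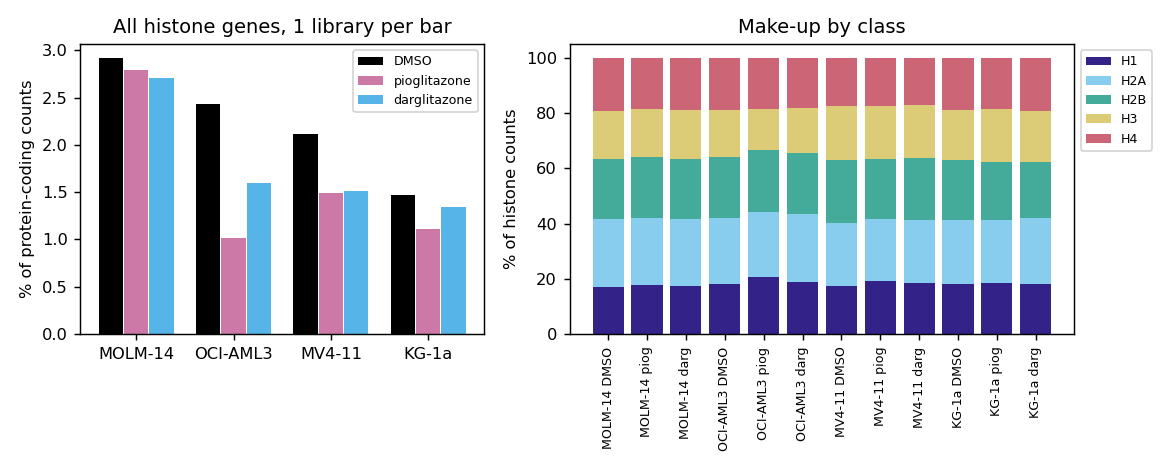
Left, bars give the share of protein-coding counts held by the 70 histone genes in each of the 12 libraries, by line and treatment; right, stacked bars give the percentage of histone counts in each class in the same libraries (piog, pioglitazone; darg, darglitazone). The share runs from 1.01% in OCI-AML3 with pioglitazone to 2.92% in MOLM-14 with DMSO, while each class keeps a similar part of it.

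Levels are compared between genes as CPM per kb of annotated model, a scale that depends on model lengths from 297 to 2411 bases. The highest mean over the 12 libraries was that of H4C11, an H4 gene, at 2006 CPM per kb. It was followed by H1-5 (1620), HIST1H3B, now called H3C2 (1554), H4C14 (1439), H1-4 (1045) and H1-2 (1043). Below these came the most abundant H2B gene, H2BC12 (856), and the most abundant H2A gene, H2AC14 (842). H4C11 shares 79.6% of its 75-base windows with H4C12, which was listed at 0 in all libraries, so the reads of these copies cannot be fully parted. The same holds for H2AC14, which shares 82.4% of its windows with another H2A gene, for H2AC17 (85.3%, with the overlapping H3C12) and for H2BC12 (50.5%).

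H1-5 had the largest CPM of all members. Its levels were 1883, 1864 and 1772 CPM in MOLM-14 and 1650, 604 and 979 CPM in OCI-AML3. MV4-11 had 1089, 770.0 and 769.7 CPM, and KG-1a had 728, 519 and 607 CPM. MOLM-14 lay above every other library, and each drug value was below its own DMSO value. The linker histones H1-2, H1-3, H1-4 and H1-5 encode somatic subtypes, and their balance differed by line. H1-5 made up 45.6% ± 0.156 (SD, n = 3) of H1 counts in MOLM-14 and 42.3% ± 3.14 in OCI-AML3, which overlap, against 34.7% ± 1.02 in KG-1a and 35.6% ± 2.13 in MV4-11, which overlap too. H1-3 made up 1.58% ± 0.0566 in MOLM-14, against 7.83% ± 0.315 in KG-1a, 6.86% ± 0.245 in MV4-11 and 5.36% ± 1.07 in OCI-AML3. H1-4 was largest in MV4-11 at 34.1% ± 1.97.

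MOLM-14 was the line with the most histone RNA and KG-1a the line with the least. In the comparison of a line with the mean of the other 3 (edgeR quasi-likelihood test, line and treatment as terms, adjusted p under 0.05 over 15424 genes), 47 of 63 members were higher in MOLM-14, against 23.5% of all genes, and 10 lower, against 17.7%. The member median was 1.09 on the log2 scale, that of all genes 0.045. In KG-1a 45 members were lower, against 27.2% of all genes, and 8 higher, against 26.9%, with a median of -0.73. Members called lower in MOLM-14 included H3C7, H2BC9, H3C8 and H2BC10, and those called higher in KG-1a included H3C7 and H2BC9. These genes are picked below on the same values. H2BC26, called higher in MOLM-14, passed the low-count filter through lines where it was high. Such calls are part of the counts but add no support. For 45 of the 63 members MOLM-14 had the highest line mean, while 22.5% of all tested genes had theirs in MOLM-14. P-values here measure the spread between libraries of a line after the treatment terms, not between cultures of 1 condition.

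OCI-AML3 and MV4-11 lay between, with fewer calls. In OCI-AML3 7 members were higher (23.0% of all genes) and 14 lower (19.4%), and in MV4-11 17 were higher (23.3%) and 11 lower (17.5%). Members called lower in OCI-AML3 included H2BC9 and H2BC26, and those called higher in MV4-11 included H4C6 and H2BC26. As stated below for these genes, their tests between lines add no support. The medians over all members were -0.14 and -0.18. The counts of calls depend on single libraries. Without OCI-AML3 pioglitazone 18 members were higher and 12 lower in OCI-AML3, where 21.7% of all genes were higher and 16.3% lower, and the median was 0.17. In MV4-11 18 were then higher and 27 lower, where 23.0% of all genes were higher and 17.7% lower. Without OCI-AML3 DMSO 5 were higher and 26 lower in OCI-AML3, against 17.1% and 15.7% of all genes. The 11 members lower in MV4-11 became 2 without its darglitazone library, 3 without its DMSO or its pioglitazone library, and 5 without MOLM-14 or KG-1a pioglitazone, while 10.9% to 14.8% of all genes were lower there in these 5 fits.

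H2BC8, an H2B gene of the second HIST1 block, was highest in MOLM-14. It stood there at 341, 317 and 294 CPM, in MV4-11 at 231, 143 and 143, in OCI-AML3 at 128, 58.8 and 96.8, and in KG-1a at 72.4, 46.5 and 70.4. The MOLM-14 libraries were above all others, and the KG-1a libraries overlapped those of OCI-AML3. H2BC8 was 1.69 ± 0.13 (SE) higher on the log2 scale in MOLM-14 than in the other lines (adjusted p = 1.69e-07, edgeR) and 1.46 ± 0.16 lower in KG-1a, a log2 fold change of -1.46 (adjusted p = 1.92e-06). H4C1, an H4 gene, was also highest in MOLM-14 and lowest in KG-1a, with 83.6 to 101 CPM in MOLM-14, 41.3 to 58.1 in MV4-11, 43.0 to 81.0 in OCI-AML3 and 19.1 to 24.5 in KG-1a. Its log2 fold change in KG-1a was -1.56 (95% interval -1.91 to -1.22, edgeR adjusted p = 1.21e-06). H3C12 had 350 to 378 CPM in MOLM-14 and 29.1 ± 3.46 (SD, n = 3) in KG-1a, the widest span, 12.5-fold between line means, among the members with no line under 5% of the highest.

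Some members broke that order. H2BC14 was highest in OCI-AML3, at 421, 117 and 189 CPM, with 187 to 230 in MOLM-14, 23.6 to 41.1 in KG-1a and 114 to 226 in MV4-11. Its log2 fold change in OCI-AML3 was 1.13 (95% interval 0.69 to 1.57, edgeR adjusted p = 8.08e-04), though its OCI-AML3 libraries overlapped those of MOLM-14 and MV4-11. In MV4-11, H4C13 and H4C2 were lower than in the other lines, by log2 fold changes of -0.90 ± 0.19 (SE) and -0.95 ± 0.21 (edgeR adjusted p = 2.09e-03 and 3.22e-03). H4C2 stood at 85.2 to 143 CPM in MV4-11, against 152 to 206 in KG-1a, 274 to 324 in MOLM-14 and 75.5 to 282 in OCI-AML3.

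Several members were close to 0 in 1 or more lines while their neighbours were expressed. A line mean under 1% of the highest line mean was found for 8 of 63 members (12.7%, against 9.39% of all genes tested), and under 5% for 13 (20.6%, against 17.8%). These shares are near the background. As to position, 4 of the 8, H3C7, H2BC9, H3C8 and H2BC10, lay within 23.2 kb, and no other tested member lay between them. H3C7, which encodes H3.1, had 308, 230 and 222 CPM in MV4-11. KG-1a had 228, 206 and 233 CPM of it, but there were 0.0994, 0.257 and 0.107 in MOLM-14 and 0.164, 3.51 and 0.190 in OCI-AML3.

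All 4 were under 1% of their highest line mean in both MOLM-14 and OCI-AML3, which is how they were picked. H3C7 and H3C8 had their highest mean in MV4-11, and H2BC9 and H2BC10 in KG-1a. Together they had 604 to 873 CPM in MV4-11 (4673 to 20496 counts) and 620 to 803 CPM in KG-1a, against 0.364 to 0.728 CPM in MOLM-14 (4 to 17 counts). In OCI-AML3 they had 0.209 CPM with DMSO, 0.570 with darglitazone and 11.4 with pioglitazone, the last being 13 counts in the library that holds KG-1a genes at 1.85%, whose part in this value was not tested. Tests of these genes between lines score the differences by which they were picked, on the same values. Their p-values add no support and are not given. Fitted fold changes of genes so close to 0 depend on the prior count and are not given.

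The nearest expressed members lay close by. H4C8 was expressed in all lines at 53.5 to 231 CPM, and its annotated span came within 4252 bases of H2BC10. The row that held 87.0% of its counts lay farther off, at chr6:26285113-26285509. On the other side, past the untested H4C7 (0 in all libraries), H4C6 was found in MV4-11 alone above 1 CPM (31.8, 19.7 and 20.2 CPM), with at most 0.209 CPM in the other 9 libraries. H4C6 passed the low-count filter through MV4-11 alone, so its test adds no support and is not given. Next to it H1-3 was expressed in all lines (59.9 to 189 CPM), and beyond that H3C6 was low in all, with 4.30 to 12.6 CPM in KG-1a, 1.87 to 4.27 in MV4-11, 0 to 0.877 in OCI-AML3 and 0.0662 to 0.129 in MOLM-14. In the promoters above, ATTTGCAT was in 2 of the 4 genes of the set, the H2B genes, as in H2BC12. CCAAT was in 4 of 4 and TATAAA in 1 of 4, where 44 of 65 members held it.

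**Figure D2:**
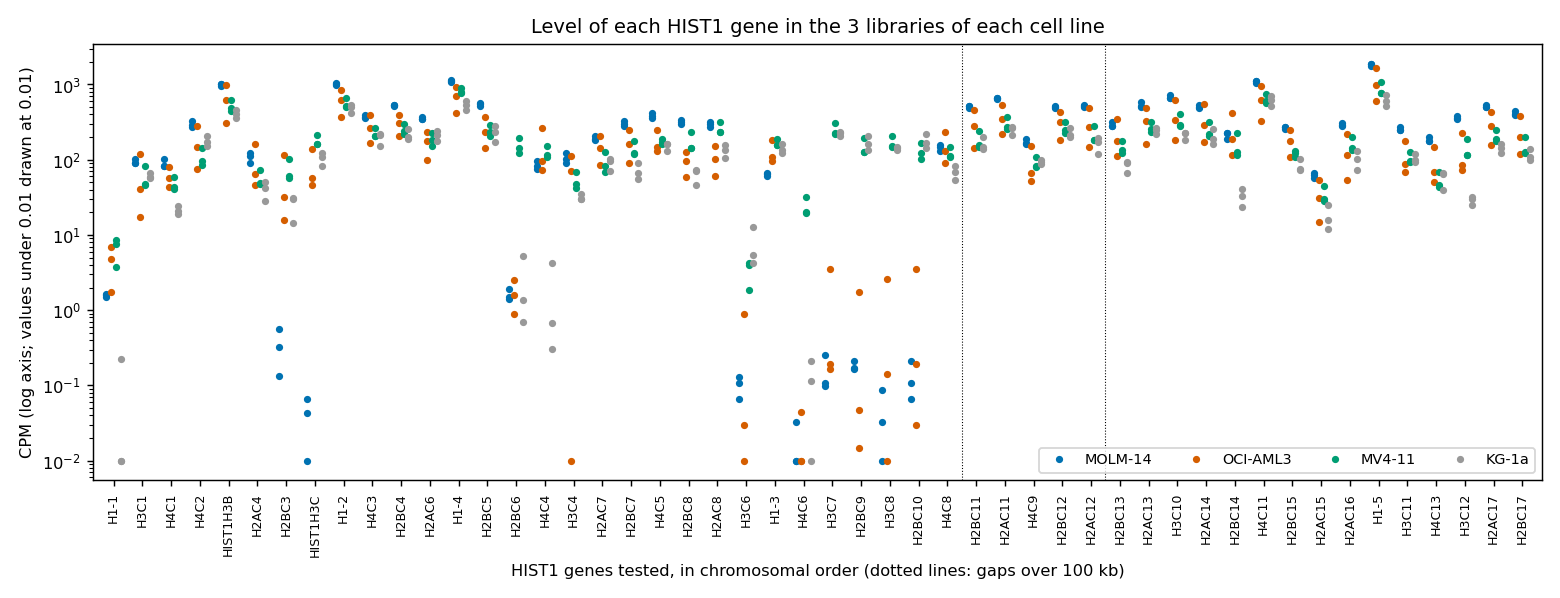
Points give the level of each tested HIST1 gene in CPM on a log axis, with genes in chromosomal order and 3 libraries per line in colour; values under 0.01 CPM are drawn at 0.01. H3C7, H2BC9, H3C8 and H2BC10 stand above 100 CPM in MV4-11 and KG-1a and under 4 CPM in MOLM-14 and OCI-AML3, while H4C8 beside them is expressed in all lines.

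Other members were at or near 0 in a single line. HIST1H3C, now called H3C3, had 0.0662, 0.0429 and 0 CPM in MOLM-14 against 83.6 to 123 in KG-1a, 160 to 215 in MV4-11 and 46.2 to 140 in OCI-AML3. Its neighbour H2BC3, an H2B gene, had 0.132 to 0.557 CPM in MOLM-14 and 14.3 to 117 in the other lines. HIST1H3C was called higher in OCI-AML3 (edgeR adjusted p = 7.91e-07), though KG-1a and MV4-11 both had higher means, since that comparison averages the other lines on a log scale and MOLM-14 is near 0. H4C4 had 0.679, 0.302 and 4.19 CPM in KG-1a and 72.8 to 268 elsewhere, and the 4.19 stands in the library with MV4-11 genes at 4.24%. H2BC6 was high in MV4-11 alone (197, 124 and 144 CPM, at most 5.23 in the other lines). H1-1, the linker subtype with the lowest level of those tested, had 0.226, 0 and 0 CPM in KG-1a and 1.5 to 8.67 elsewhere.

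HIST3 members were also restricted by line. H2BC26, an H2B gene, had 20.8, 24.6 and 21.3 CPM in MOLM-14, 29.3, 19.7 and 17.8 in MV4-11, at most 0.475 in OCI-AML3 and 0.302 to 1.13 in KG-1a. Its MOLM-14 and MV4-11 libraries overlapped, and MV4-11 had the higher mean. H2BC26 passed the low-count filter through these lines, so its tests between lines add no support and are not given. H2AC25, its neighbour, had 5.34 to 7.33 CPM in MOLM-14, 12.3 to 12.7 in MV4-11, at most 0.0950 in OCI-AML3 and at most 0.628 in KG-1a. H4C16, the HIST4 gene, was present in all lines, with 16.3 to 19.4 CPM in MOLM-14, 21.0 to 31.8 in MV4-11, 12.0 to 20.9 in KG-1a and 4.39 to 8.56 in OCI-AML3.

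No tested HIST2 member was under 5% of its highest line in any line. The 10 tested genes spanned 1.92-fold to 4.55-fold between their highest and lowest line means, and MOLM-14 was highest for all but H4C15. H2BC21 had 555 to 594 CPM in MOLM-14 and 119 to 317 elsewhere, and H2BC18 had 593 to 641 in MOLM-14 and 124 to 509 elsewhere. H2AC20 ran from 79.0 to 254 CPM, H2AC21 from 38.5 to 218, and H3C13, an H3.2 gene, from 46.5 to 268, with the MOLM-14 libraries highest for each. H4C14 and H3C14 overlap on opposite strands and reached 1648 and 1357 CPM in MOLM-14 with DMSO.

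Near-identical copies limit what can be said of single HIST2 genes. HIST2H2AA3 shares all its 75-base windows with HIST2H2AA4, and their split was unstable, at 0 and 384 CPM in OCI-AML3 with pioglitazone but 665 and 313 with DMSO. Their sum is firmer, at 1299, 1145 and 1091 CPM in MOLM-14, 652, 429 and 568 in KG-1a, 988, 728 and 695 in MV4-11, and 978, 384 and 836 in OCI-AML3. H4C15 shares 96.8% with H4C14 and was assigned 1.75 to 15.3 CPM, against 326 to 1648 for H4C14. H3C14 shares all its windows with HIST2H3A, which was not analysed here. In all, 15 of the 70 genes, 13 of them tested, shared at least 50% of their windows with another gene.

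Pioglitazone at 10 µM for 12 h left nearly all histone genes lower than with DMSO, but no member passed the threshold. At an adjusted p under 0.05 (edgeR quasi-likelihood test) 0 of 63 members were called, and 0% of all 15424 genes. At an unadjusted p under 0.05, 48 of 63 were lower and 0 higher, where 3.87% of all genes were lower. The log2 fold change was negative for 60 members, with a median of -0.58, against -0.024 for all genes, and the smallest adjusted p was 0.542. DESeq2 called 25 members and 74 genes in all, and limma-voom called 0 members. In each of the 4 lines separately, 47 of 63 members were lower with pioglitazone than with DMSO, as were 10.7% of all genes.

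The change was uneven between lines. The member median of the log2 ratio to DMSO (prior count 2) was -0.083 in MOLM-14 and -1.44 in OCI-AML3, with -0.48 both in KG-1a and in MV4-11 (SD over the lines 0.58). Over all genes the median was -0.20 in OCI-AML3 and -0.010 in MV4-11. OCI-AML3 and KG-1a pioglitazone are the libraries with ribosomal entries at 6.17% and 23.5%, and the part of that in the result was not tested. With MOLM-14 and MV4-11 alone, the median was -0.29 and 59 of 63 members were negative. When the pioglitazone libraries of KG-1a and OCI-AML3 were left out, the median was -0.32. In both fits fewer members had an unadjusted p under 0.05 than with all libraries. No share of all genes at that level is given for these fits, so the counts are left out.

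The classes had similar medians with pioglitazone. The median log2 fold change was -0.42 for 5 H1 genes, -0.57 for 16 H2A, -0.59 for 17 H2B, -0.63 for 12 H3 and -0.57 for 13 H4 genes. By position it was -0.55 in the second HIST1 block (20 of 30 members with an unadjusted p under 0.05), -0.54 in the block that follows (5 of 5), -0.65 in the last (15 of 15), -0.58 in HIST2 (7 of 10) and -0.07 for the pair of tested HIST3 genes (0 of 2). Of all genes 3.87% were lower at that level. Members of a block are read from the same libraries, and differences between blocks were not tested. H2AC7, an H2A gene, had the smallest p. It stood at 204, 191 and 184 CPM in MOLM-14, 102, 70.2 and 96.3 in KG-1a, 126, 68.6 and 82.6 in MV4-11, and 208, 84.2 and 142 in OCI-AML3. Each pioglitazone value was below its DMSO value, and the log2 fold change was -0.68 ± 0.16 (SE, adjusted p = 0.542, edgeR). H2AC7 lies within a longer annotated gene and shares 97.8% of its windows with it. The next, H2BC7, gave -0.67 (95% interval -1.02 to -0.33) at the same adjusted p, with DMSO and pioglitazone at 322 and 299 CPM in MOLM-14, 89.5 and 55.2 in KG-1a, 178 and 118 in MV4-11, and 248 and 91.3 in OCI-AML3.

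The most abundant members were lower too. With pioglitazone the log2 fold change of H1-5 was -0.60 (95% interval -0.99 to -0.22), that of H1-4 -0.42 (-0.72 to -0.11), that of H1-2 -0.46 (-0.78 to -0.14) and that of H1-3 -0.38 (-0.67 to -0.09). Among H2A genes it was -0.75 for H2AC14, -0.76 for H2AC12 and -0.56 for H2AC17. HIST2H2AA4 gave -0.28, with an interval that spans 0. H2BC5 gave -0.63, H2BC17 -0.70, H2BC12 -0.50 and H2BC4 -0.43. HIST1H3B gave -0.59, H3C14 -0.62, H3C11 -0.57 and H3C12 -0.69, and H4C11 gave -0.59, H4C14 -0.75, H4C3 -0.54 and H4C2 -0.77. Adjusted p ran from 0.559 to 0.933 among these 20 genes. Positive values were seen for H3C6 (0.94, 95% interval -0.50 to 2.38), H2AC25 (0.14 ± 0.52, SE) and H4C15, all of them members with low counts.

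With darglitazone most members were again below DMSO, and no member passed. At an adjusted p under 0.05, 0 of 63 members and 0% of genes were called (edgeR). At an unadjusted p under 0.05, 28 members were lower and 0 higher, against 1.65% of all genes lower. The log2 fold change was negative for 59 members, with a median of -0.36, against 0.005 for all genes. In all 4 lines separately, 38 of 63 members were lower, as were 7.12% of all genes. DESeq2 called 0 members and 6 genes, and limma-voom 0 members. Since both drugs are set against the same DMSO libraries, their agreement is not independent. Without the OCI-AML3 DMSO library the median was -0.22. Without the darglitazone library of KG-1a, which holds MV4-11 genes, it was -0.42. More members had an unadjusted p under 0.05 without MOLM-14 DMSO or without OCI-AML3 pioglitazone. Fewer had it when any other single library was left out. No share of all genes at that level is given for these fits, so the counts are left out.

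In single lines the member medians with darglitazone were -0.12 in MOLM-14, -0.18 in KG-1a, -0.49 in MV4-11 and -0.61 in OCI-AML3. The class medians were -0.36 for H1, -0.34 for H2A, -0.34 for H2B, -0.41 for H3 and -0.39 for H4. The smallest p was that of HIST1H3C, with 123 and 108 CPM in KG-1a (DMSO and darglitazone), 215 and 163 in MV4-11, 140 and 46.2 in OCI-AML3, and 0.0662 and 0 in MOLM-14. Its log2 fold change was -0.75 ± 0.22 (SE, edgeR unadjusted p = 0.0043, adjusted p = 1). For H2AC4, an H2A gene, the log2 fold change was -0.71 (95% interval -1.17 to -0.25), with 125 and 91.2 CPM in MOLM-14, 50.2 and 41.7 in KG-1a, 73.9 and 47.7 in MV4-11 and 162 and 63.7 in OCI-AML3. H1-5 gave -0.42, H2AC14 -0.53, H2BC12 -0.33, HIST1H3B -0.33 and H4C11 -0.32, the last pair with intervals that span 0. HIST2H2AA4 gave 0.010, H3C6 1.09 (95% interval -0.27 to 2.46) and H4C15 0.47 (-0.24 to 1.19).

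**Figure D3:**
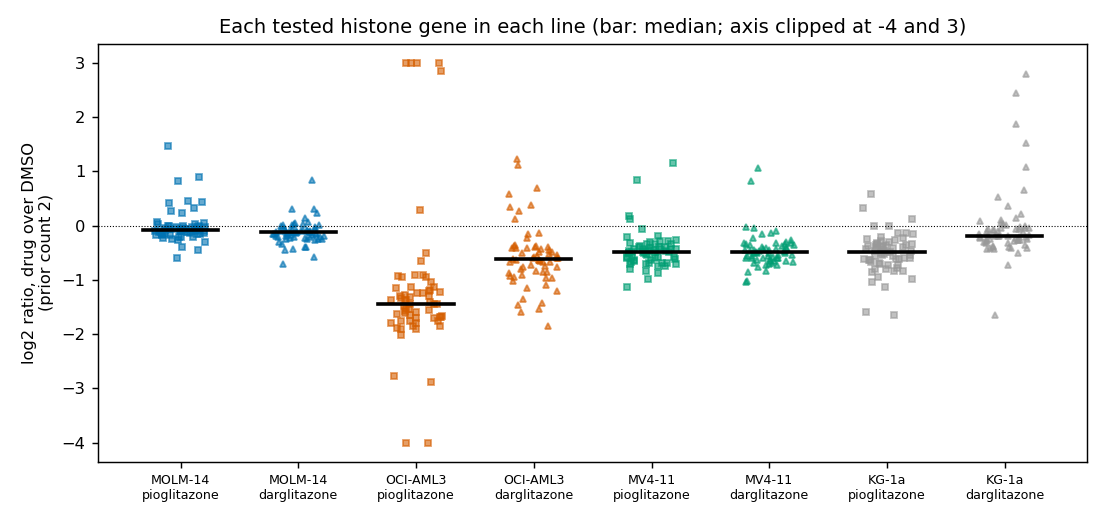
Points give the log2 ratio of drug to DMSO for each of the 63 tested histone genes in each line, squares for pioglitazone and triangles for darglitazone, with a bar at the median; 6 points beyond -4 or 3 are drawn at those limits. Medians run from -1.44 (OCI-AML3, pioglitazone) to -0.083 (MOLM-14, pioglitazone), and those of MV4-11 are -0.48 and -0.49.

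Both drugs were used at the same dose and time, so they can be compared directly. Darglitazone minus pioglitazone was positive for 61 of 63 members, with a median of 0.21 (all genes 0.034), but 0 members and 0% of genes passed (edgeR; DESeq2 and limma-voom also called 0 members), and 1 member was higher at an unadjusted p under 0.05, where 2.09% of all genes were. That member was H2AC21, with 193 and 218 CPM in MOLM-14 (pioglitazone and darglitazone), 38.5 and 48.8 in KG-1a, 84.2 and 102 in MV4-11 and 38.6 and 87.9 in OCI-AML3. Its difference was 0.41 on the log2 scale (95% interval 0.05 to 0.76, adjusted p = 0.980). H2BC18 gave 0.35 (95% interval -0.01 to 0.70). Negative differences were seen for H1-1 (-0.26, 95% interval -1.43 to 0.91) and H3C7 (-0.07, -0.85 to 0.71). The intervals do not show that the drugs act alike. Adjusted p-values were over all genes, and this is the only pair of compounds. The size of the median rests on 1 library: without OCI-AML3 pioglitazone the median was 0.032, and with KG-1a pioglitazone left out as well it was -0.086, with 47 of 64 tested members negative.

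The mean of both drugs against DMSO called 0 members and 0% of genes, with 48 members lower at an unadjusted p under 0.05, against 3.07% of all genes, and a median of -0.46. DESeq2 called 18 members and 36 genes, and limma-voom 0 members. The smallest p values were those of H2BC7 (-0.57, 95% interval -0.86 to -0.28) and HIST1H3C (-0.76, -1.16 to -0.36), each with an edgeR adjusted p of 0.898. H3C6 (1.02) and H4C15 (0.25) were the positive members with the smallest p, and their intervals span 0. Among the fits without a single library, that without OCI-AML3 DMSO had the fewest members with an unadjusted p under 0.05, fewer than with all libraries. No share of all genes is given for that fit.

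Whether the response differed between lines was tested with a term for line by drug. None of the 63 members passed, against 0.00648% of all genes (1 gene), and 11 members had an unadjusted p under 0.05, against 3.05% of all genes. DESeq2 called 3 members and limma-voom 0. H3C12 had the smallest p (0.0021, adjusted 0.914, edgeR). Its log2 ratios to DMSO were -0.06 and -0.11 in MOLM-14 (pioglitazone, darglitazone), -0.25 and 0.10 in KG-1a, -0.75 and -0.73 in MV4-11, and -1.67 and -1.42 in OCI-AML3. Next was H2BC3 (0.0027, adjusted 0.986), with ratios of -1.12 and -0.06 in KG-1a, -0.83 and -0.76 in MV4-11, -2.88 and -1.85 in OCI-AML3, and under 1 CPM in MOLM-14. The test has 3 residual degrees of freedom.

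Genes that act with these histones had medians nearer 0, a difference that was not tested. Of 17 tested genes for histone mRNA transcription and 3′ end processing, 0 were called in either drug contrast. At an unadjusted p under 0.05, 1 was lower with pioglitazone and 0 with darglitazone (medians -0.042 and -0.070). Over all genes 3.87% and 1.65% were lower at that level. SLBP gave -0.08 (95% interval -0.31 to 0.15) and -0.09 (-0.32 to 0.13), and NPAT gave 0.13 (-0.32 to 0.58) and 0.10 (-0.33 to 0.52). SLBP stood at 36.3 to 40.8 CPM in KG-1a and 85.6 to 113 CPM in the other lines, without overlap. SRRT, of the cap-binding pathway, and ERI1, a 3′ exonuclease of histone mRNA, had the smallest p in the mean of both drugs, at -0.21 and -0.31.

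Replication-independent histones are not restricted to S phase and are made mostly from mRNAs with poly(A) tails. Of 11 tested, 0 were called, and 4 with pioglitazone and 2 with darglitazone were lower at an unadjusted p under 0.05 (medians -0.22 and -0.13). The shares of all genes lower at that level were 3.87% and 1.65%. The H3.3 genes H3-3A and H3-3B gave -0.14 (95% interval -0.36 to 0.08) and 0.007 (-0.26 to 0.28) with pioglitazone. H2AZ1, the H2A.Z gene, gave -0.25 (-0.48 to -0.02), and H1-10, a linker variant, gave -0.22 (-0.54 to 0.09). In the mean of both drugs the smallest p values were those of H2AX (-0.45) and CENPA (-0.45). H2AX mRNA is known to exist in a stem-loop form too, and CENPA, the centromeric H3, is known to peak in G2.

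Of 21 tested histone chaperones, 0 were called, and 5 and 2 were lower at an unadjusted p under 0.05 (medians -0.19 and -0.11). For each list of this paragraph the background is the share of all genes lower at that level, 3.87% with pioglitazone and 1.65% with darglitazone. The smallest p in the mean of both drugs were those of MMS22L (-0.33), which acts at replication forks, and CHAF1B (-0.29), a subunit of the replication-coupled assembly factor CAF-1. Of 35 genes of S phase entry and DNA replication 0 were called, and 14 and 5 were lower at that level (medians -0.18 and -0.10), led by GINS4 (-0.39), of the replicative helicase, and TYMS (-0.43), which makes thymidylate. Of 25 genes of G2 and mitosis 0 were called, and 12 and 13 were lower (medians -0.39 and -0.38), led by CDC20 (-0.64) and BIRC5 (-0.55). All called counts of 0 here are edgeR's.

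In OCI-AML3, where the histone medians were -1.44 and -0.61, the S phase list had medians of -0.42 and 0.09, and the G2 and mitosis list had -1.21 and -0.99. In MV4-11, against -0.48 and -0.49 for the histones, the S phase list had -0.31 and -0.25 and the mitotic list -0.59 and -0.32. In KG-1a the mitotic list had -0.05 and -0.11 against -0.48 and -0.18 for the histones. Their part in the histone result was not tested.

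**Figure D4:**
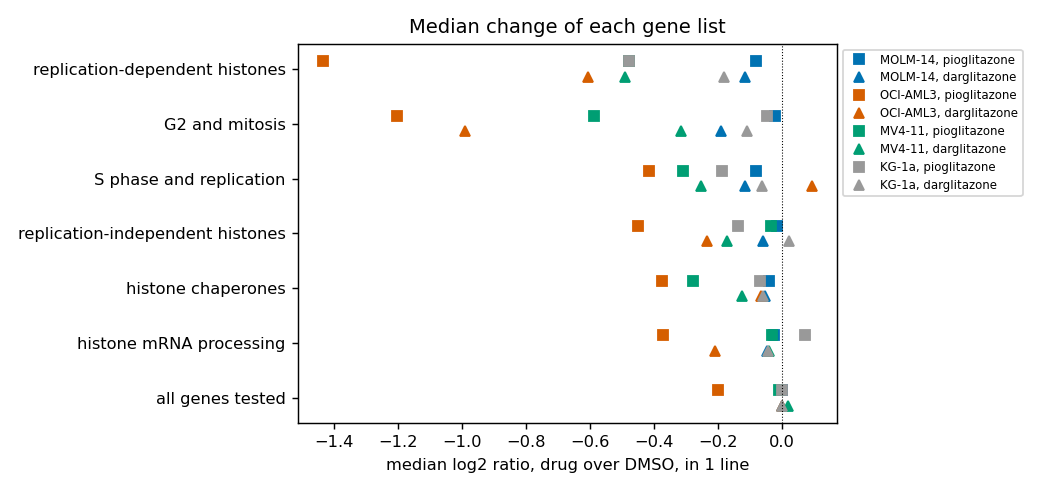
Symbols give the median log2 ratio of drug to DMSO of each gene list in each of the 4 lines, squares for pioglitazone and triangles for darglitazone, with all tested genes at the bottom. Histone genes reach -1.44 and the G2 and mitosis list -1.21 in OCI-AML3, while the lists of histone chaperones and of histone mRNA processing lie between -0.38 and 0.07.

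Most members are annotated as a single exon, but 13 have rows with introns. H2AC6 has multi-exon rows alone. In H2BC18 such rows took 69.3%, 71.0% and 68.8% of counts in MOLM-14, and in H2BC15 they took 70.2%, 71.5% and 68.9% of them, while over all 12 libraries the ranges were 56.7% to 78.2% and 64.3% to 78.9%. In H2BC11 they took 27.3%, 28.7% and 26.9% in MOLM-14. In members with few counts in some lines the share varied more. For H2BC6 in MV4-11, where it was high, multi-exon rows held 1.15% of counts, while in MOLM-14 and OCI-AML3, where it had 0.877 to 2.56 CPM, they held 75.2% to 100% in each library, and in KG-1a 68.1%, 100% and 33.3%. For H3C6, with few counts, they held 98.2% in KG-1a, 67.0% in MOLM-14, 49.8% in MV4-11 and 38.5% in OCI-AML3. The transcript estimates behind these shares depend on the authors' counting, and overlapping genes such as H2BC15, H2AC15 and H2AC16 cannot be fully parted.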

How the data were processed

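For 12 libraries of total RNA the authors deposited transcript-level estimated counts that carry no normalization. The tools named in the submitters' processing notes are STAR, featureCounts, fastp, FastQC and DESeq2, and the build is GRCh38. The tool behind the estimated counts, its version and the annotation are not given in the sources used here. Of the values above 0, 89.8% were not whole (tolerance 1e-06), so reads shared by gene copies were split by an unknown rule.

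Of 203027 transcripts, 202941 (99.958%) matched GENCODE 29 and were summed to 57865 genes and rounded. In no library did the 86 others exceed 0.0169% of counts. filterByExpr in edgeR 4.0.16 (grouped by line, at least 10 counts, at least 15 in total) left 15424 genes. TMM scaling and the robust quasi-likelihood test followed, with cell line and treatment as terms (6 residual degrees of freedom), and p-values were adjusted by Benjamini-Hochberg over all genes, threshold 0.05. A second model added line by drug. The line is the replicate of a treatment and enters as a block, since a line gives its number to all treatments. R 4.3.3, limma 3.58.1, DESeq2 1.42.0 and Python 3.11.15 were used, and the scripts were tested on simulated data. Single-line ratios used a prior count of 2. A floor of 3 counts covers counting error only.

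The members, gene lists and tests were chosen with earlier results of these data known. Genes were named by a rule: in each class the 4 with the highest CPM per kb, per comparison and direction the 2 of smallest p, all outside HIST1, and set genes of each list. The others (H3C8, H2BC10, H4C4, H4C8, H2BC6, H2BC11, H2BC15, H2AC6) were chosen after their values were seen. Alternatives were DESeq2, limma-voom, other scalings, no filter, single-exon rows, no block, another prior count or denominator, and leaving out libraries. Leaving out the gene copies and using MOLM-14 and MV4-11 alone were chosen after seeing the data.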

Additional observations from a re-analysis of the deposited data

Results flagged for a closer look

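In all, 30 groups of 4 reported values were examined for a value far from the others. They were shares in the 4 libraries of 1 treatment, or median log2 ratios of 1 drug to DMSO in the 4 lines. Of these groups 2 stood out, where chance gives about 1 in 20 groups. The share of H2B in the histone counts with DMSO was 22.97% in MV4-11, against 21.8% to 21.9% in the 3 other lines. The share of H4 with DMSO was 17.36% in MV4-11, against 19.0% to 19.1% in the 3 others. Both come from the same library and are parts of the same total, so they are not separate findings.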

How the results depend on the processing

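Cell line was a block in the drug comparisons. With no replicate block, 0 members were called in the pioglitazone, darglitazone, darglitazone minus pioglitazone and mean comparisons, as with it, and 0 of 63 had an unadjusted p under 0.05 in each. Members called rose with DESeq2 to 25 for pioglitazone, 18 for the mean of both drugs and 3 for line by drug, where it called 74, 36 and 64 of all genes. With no low-count filter they were 43 for pioglitazone, 9 for darglitazone, 1 for darglitazone minus pioglitazone, 38 for the mean and 6 for line by drug, of 67 tested, and of all genes they were 223, 76, 88, 148 and 124. limma-voom called 0 in these 5. The cause was not tested. Without OCI-AML3 and KG-1a pioglitazone the calls were 34 for OCI-AML3, 45 for MV4-11 and 4 for line by drug (6357, 6344 and 85 of all genes), with fewer libraries and another set of genes tested. Leaving out 1 library at a time gave 19 to 45 for MV4-11 (45 without OCI-AML3 pioglitazone), 19 to 31 for OCI-AML3, 54 to 60 for MOLM-14, 41 to 55 for KG-1a, 0 to 3 for line by drug (1 without MOLM-14 darglitazone, 3 without OCI-AML3 darglitazone) and 0 for the drug comparisons. Over all genes these fits called 4566 to 6750 for MV4-11 and 5113 to 6358 for OCI-AML3. They called 4404 to 6725 genes for MOLM-14 and 6694 to 8864 for KG-1a. For line by drug it was 0 to 22 genes, and for the drug comparisons at most 14. Leaving out a DMSO library left line by drug without an estimate.

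Member medians under these left-out libraries ran from -0.75 to -0.41 for pioglitazone, from -0.48 to -0.22 for darglitazone, from -0.60 to -0.31 for the mean and from 0.032 to 0.36 for darglitazone minus pioglitazone. With the gene copies left out they were -0.57, -0.36, -0.47 and 0.18. Of 72 pairs of a named gene and a comparison, 5 changed sign under some alternative, listed here. For HIST2H2AA4 with darglitazone the value was -0.041 with no filter, -0.013 without OCI-AML3 and KG-1a pioglitazone, -0.069 with no replicate block, -0.33 in MOLM-14 and MV4-11 alone, and from -0.17 to 0.16 without single libraries (below 0 in 5 of these, at -0.17, -0.080, -0.057, -0.00090 and -0.15). H3C7, darglitazone minus pioglitazone, was 0.0053 with limma-voom, 0.041 with no replicate block, and from -0.27 to 0.046 without single libraries (0.030 without OCI-AML3 pioglitazone and 0.046 without MV4-11 darglitazone). H1-1 in that comparison ran from -0.61 to 0.28 (0.28 and 0.10 without MV4-11 pioglitazone and darglitazone), and H2BC18 was -0.039 without OCI-AML3 and KG-1a pioglitazone. H2AC25 with pioglitazone ran from -0.22 (without MOLM-14 pioglitazone) to 0.33. Depth limits the low genes most, since 3 counts were 2.63 CPM in OCI-AML3 with pioglitazone.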
